A study of Homo sapiens with 9 samples.

Results

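The mitochondrial genome encodes 6 proteins of respiratory chain complexes III, IV and V, and their mRNAs are MT-CYB of complex III, MT-CO1, MT-CO2 and MT-CO3 of complex IV, and MT-ATP6 and MT-ATP8 of complex V. They were taken by gene name, with every 50-nt counting window of each gene, from a table of 35309 identifiers and 15767969 windows. The 6 mRNAs had 245 possible windows, of which 231 were listed with at least 1 cross-link count. All 6 passed the filter on low counts at gene level, and 222 of the 245 windows passed it in the comparison of MDH2 IP with SMI. In each of the other comparisons 219 windows passed.

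Cross-link sites of MDH2, the malate dehydrogenase of the mitochondrial matrix, were mapped by eCLIP in the human hepatoma line Huh7. The MDH2 IP, the size-matched input (SMI, a portion of lysate kept back ahead of the IP and cut from the same gel range) and a mock IP with isotype-matched IgG had 3 libraries each. IP and IgG libraries were amplified over 14 PCR cycles and SMI libraries over 9. All cells were UV cross-linked, and no group differed in genotype or in a drug.

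Transcription of mitochondrial DNA gives long precursors that are cut, largely at tRNAs, into rRNAs, tRNAs and mRNAs, which mitochondrial ribosomes translate. MT-ATP8 and MT-ATP6 lie on a single bicistronic mRNA with overlapping reading frames, and the other 4 mRNAs are translated as separate messages. The remaining subunits of complexes III, IV and V are encoded in the nucleus and imported. Copies of mitochondrial DNA also lie in the nuclear genome, and reads from a shared stretch can align to either place.

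On GRCh38, all 6 genes lie on the + strand of the mitochondrial chromosome. MT-CYB occupied chrM:14747-15887 with 56 windows, MT-CO1 chrM:5904-7445 with 76, MT-CO2 chrM:7586-8269 with 33, MT-CO3 chrM:9207-9990 with 38, MT-ATP6 chrM:8527-9207 with 33 and MT-ATP8 chrM:8366-8572 with 9. Windows start every 20 nt and are numbered from the 5′ end, so a site is counted in up to 3 of them. The last window of MT-ATP8 and the first of MT-ATP6 cover nearly the same bases and held 136 and 143 counts in the first MDH2 IP library, so these values are not independent.

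The windows that carry the results are shown from GRCh38, 5′ to 3′, with the longest stretch of C and T in capitals. First come the windows with the highest mean level in the MDH2 IP for each mRNA, in counts per 1000000 of the scaled library size (CPM).
MT-CYB window 36, chrM:15447-15496: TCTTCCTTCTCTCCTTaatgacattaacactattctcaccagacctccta
MT-CO1 window 16, chrM:6204-6253: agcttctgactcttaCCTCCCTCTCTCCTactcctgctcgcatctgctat
MT-CO2 window 28, chrM:8126-8175: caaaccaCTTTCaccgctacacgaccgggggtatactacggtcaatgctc
MT-CO3 window 1, chrM:9207-9256: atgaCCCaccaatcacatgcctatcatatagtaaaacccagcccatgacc
MT-ATP6 window 19, chrM:8887-8936: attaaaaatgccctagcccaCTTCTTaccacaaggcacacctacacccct
MT-ATP8 window 4, chrM:8426-8475: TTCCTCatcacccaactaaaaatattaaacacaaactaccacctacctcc
Then come the windows that were lowest in MDH2 IP relative to SMI on each mRNA with such a call, and the MT-CO1 window that was highest relative to SMI.
MT-CYB window 43, chrM:15587-15636: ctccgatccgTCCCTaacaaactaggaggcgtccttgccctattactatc
MT-CO1 window 67, chrM:7224-7273: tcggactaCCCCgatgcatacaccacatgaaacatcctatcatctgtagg
MT-CO3 window 21, chrM:9607-9656: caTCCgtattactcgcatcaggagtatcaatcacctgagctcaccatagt
MT-ATP6 window 4, chrM:8587-8636: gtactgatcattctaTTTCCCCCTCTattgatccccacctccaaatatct
MT-CO1 window 46, chrM:6804-6853: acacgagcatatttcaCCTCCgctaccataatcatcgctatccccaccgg
The windows of highest mean level of MT-CYB and MT-CO1 hold C and T stretches of 16 and 14 bases, against a median of 6 over the 245 windows. Runs at least as long occurred in 2 and 5 of the 245 windows. The windows of highest mean level of MT-CO2 and MT-CO3 have stretches of only 5 and 3 bases, and those of MT-ATP6 and MT-ATP8 of 6 each. In MDH2 IP libraries 1, 2 and 3, the most counted MT-CYB windows were 3, 2 and 36. For MT-CO2 they were 14, 27 and 28, and for MT-ATP6 19, 5 and 19. The other mRNAs had the listed window in all 3 libraries. Match to nuclear DNA was taken as the longest exact match that starts at a position and runs 3′, with matches under 31 nt set to 0. Its median over the window was under 31 nt in 130 full-length windows of the 6 mRNAs. Over these, the Spearman correlation of CPM with the length of the C and T stretch was 0.22 for MDH2 IP, 0.20 for SMI and 0.22 for IgG IP. This is a description, since windows overlap and share their library.

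Window counts summed to 5899998 to 9482501 for MDH2 IP, 8311118 to 9788565 for SMI and 1631267 to 2942816 for IgG IP. The IgG libraries are thus the shallowest, and their values are the least precise. All 10 hepatocyte marker genes, among them ALB and APOA1, were tested, with a summed level of 2650 to 7143 CPM per library. The 10 markers of leukocytes, erythroid cells, fibroblasts and endothelium summed to 6.16 to 18.1 CPM, 2 of them were tested, and HBB and HBA1 had 0 counts. The sources do not state whether replicates came from separate cultures, so p-values measure the spread between these libraries.

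The 6 mRNAs held a small part of each library. Their share of all window counts was 0.349%, 0.462% and 0.406% for MDH2 IP, 0.371%, 0.506% and 0.428% for SMI and 0.347%, 0.303% and 0.253% for IgG IP. MDH2 IP and SMI overlapped as groups, but within each replicate number the share was lower in MDH2 IP, at 0.942, 0.913 and 0.947 times that of SMI. All IgG libraries lay below the lowest MDH2 IP library. The means were 0.406% ± 0.0565, 0.435% ± 0.0681 and 0.301% ± 0.0467 (SD, n = 3 each). When windows had to reach 10 counts in 3 or more of the 9 libraries, the shares became 2.04%, 2.08% and 2.37%, and IgG IP was then the highest.

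Per window of its length, MT-ATP8, which encodes a small membrane subunit of ATP synthase, had the highest level in all 9 libraries and MT-CYB, which encodes cytochrome b, the lowest. MT-ATP8 had 26.8 ± 3.36 CPM per window for MDH2 IP, 29.8 ± 6.78 for SMI and 21.6 ± 5.42 for IgG IP (SD, n = 3 each). MT-CYB had 10.5 ± 1.08, 13.8 ± 1.64 and 10.6 ± 1.18 CPM per window. Between them came MT-CO2 at 19.8 ± 3.74 CPM per window in MDH2 IP, MT-CO1 at 16.5 ± 2.68, MT-ATP6 at 15.9 ± 1.52 and MT-CO3 at 15.1 ± 2.05. MT-CO2 held the second place in 8 of 9 libraries, and MT-ATP6 lay above MT-CO3 in all 9. MT-CO1 lay above MT-CO3 in 8 of 9 libraries and above MT-ATP6 in 2, although the group ranges of these 3 mRNAs overlapped.

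**Figure D1:**
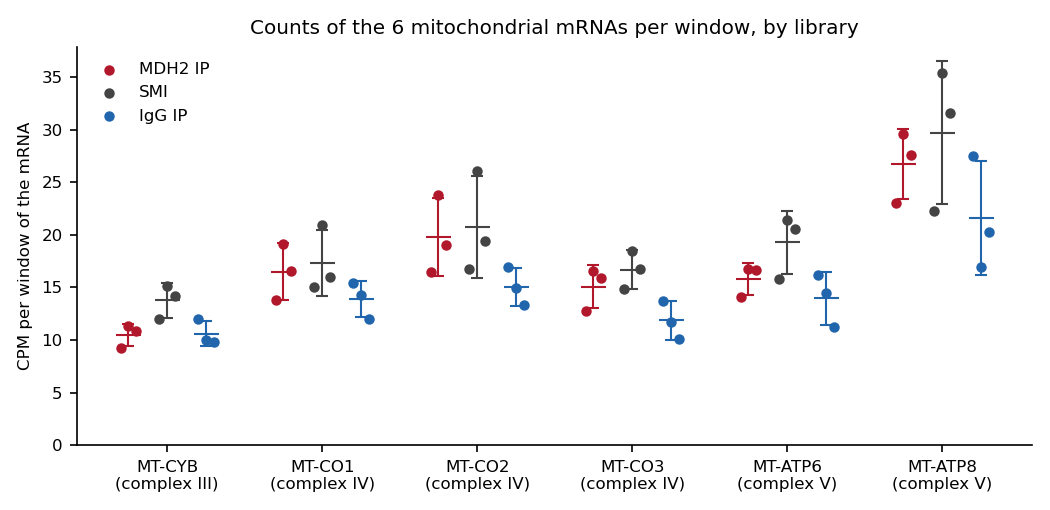
CPM per window (y axis) of the 6 mRNAs (x axis) in MDH2 IP, SMI and IgG IP. Points are libraries, horizontal lines are means and bars are SD (n = 3). MT-CYB is the only mRNA whose MDH2 IP points, 9.26 to 11.3, all lie below its SMI points, 11.95 to 15.1.

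The comparison of MDH2 IP with SMI asks which RNAs are cross-linked in the purified complexes beyond their presence in the lysate at that size. Of the 6 mRNAs, 0 were higher in MDH2 IP than in SMI and 1, MT-CYB, was lower at gene level (edgeR, adjusted p of at most 0.05). Among all 17057 genes tested, 16.4% were higher and 17.9% lower. The median log2 fold change of the 6 mRNAs was -0.18, beside -0.01 over all genes. In lysates of bulk cells, the level of an RNA does not tell the number of cells with it from the amount per cell. The fold change compares the IP with lysate kept back ahead of it, and measures neither.

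MT-CYB, the sole complex III subunit that mitochondrial DNA encodes, had 519, 633 and 608 CPM in the MDH2 IP libraries, 669, 848 and 797 in SMI and 670, 559 and 552 in IgG IP. Every MDH2 IP library lay below every SMI library, and the IgG libraries overlapped MDH2 IP. The log2 fold change of MDH2 IP over SMI was -0.42 (SE 0.14, adjusted p = 0.0455, edgeR). The call was lost when any 1 of the 6 libraries was left out, and with DESeq2, total counts, the size factors of DESeq2, a fit of all 9 libraries or windows that do not overlap. These tests took the libraries as unpaired. A replicate block, which pairs MDH2 IP and SMI by replicate number, gave 3 lower mRNAs. The edgeR adjusted p was 4.60e-07 for MT-CYB, 1.30e-04 for MT-ATP6 and 0.0149 for MT-CO3. With the block, 5020 of all 17057 genes were lower and 4653 higher, beside 3061 and 2801 without it.

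For MT-CO1, the catalytic core of cytochrome c oxidase, the 3 MDH2 IP libraries had 1049, 1457 and 1258 CPM and the SMI libraries 1146, 1590 and 1217. The groups overlapped, with a log2 fold change of -0.09 (SE 0.17, adjusted p = 0.708, edgeR). MT-CO2, which carries the copper centre that takes electrons from cytochrome c, had 543, 787 and 629 CPM against 552, 862 and 641. Its groups overlapped as well (log2 fold change -0.09, SE 0.20, edgeR adjusted p = 0.753). MT-CO3, the third core subunit, had 484, 629 and 604 CPM against 563, 704 and 637. Here too the groups overlapped, with a log2 fold change of -0.17 (SE 0.14, adjusted p = 0.384, edgeR). Within each replicate number, MT-CO2 and MT-CO3 were lower in MDH2 IP than in SMI, while MT-CO1 was higher in replicate 3. With the replicate block the edgeR adjusted p was 0.170 for MT-CO1, 0.247 for MT-CO2 and 0.0149 for MT-CO3.

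In complex V, MT-ATP6, which forms part of the proton path of ATP synthase, had 465, 554 and 550 CPM in MDH2 IP against 523, 708 and 680 in SMI. Only the lowest SMI library fell among the MDH2 IP values, and the log2 fold change of -0.31 (SE 0.15) did not pass (adjusted p = 0.142, edgeR). Within each replicate number MT-ATP6 was lower in MDH2 IP, and with the replicate block its adjusted p was 1.30e-04 (edgeR). MT-ATP8 had 207, 266 and 249 CPM against 200, 319 and 285, which overlap. Its log2 fold change was -0.18 (SE 0.18, adjusted p = 0.485, edgeR), and with the replicate block its adjusted p was 0.0582 (edgeR).

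Against IgG IP, which measures what the beads and an unrelated antibody retain, 0 of the 6 mRNAs were higher or lower in MDH2 IP. In that comparison 4.64% of 15492 genes were higher and 7.77% lower. The log2 fold changes ran from 0.03 for MT-CYB to 0.44 for MT-CO2 (SE 0.19), with a median of 0.32 beside 0.02 over all genes. MT-CO2 had 559, 494 and 439 CPM in IgG IP, of which the highest exceeds the lowest MDH2 IP library, and it had the lowest adjusted p, 0.147 (edgeR, unadjusted p = 0.0396). It was the only one of the 6 with an unadjusted p under 0.05. The share of all genes with such a p was not counted, and it includes the 4.64% and 7.77% called after adjustment.

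Between the controls, 0 of the 6 mRNAs were called, while 16.4% of 15709 genes were higher and 11.4% lower in IgG IP than in SMI. All 6 log2 fold changes were negative, from -0.47 for MT-CO3 (SE 0.16, edgeR adjusted p = 0.0561) to -0.30 for MT-CO1, with a median of -0.44 beside -0.08 over all genes. MT-CO3 had 522, 447 and 384 CPM in IgG IP, all below the 3 SMI libraries. An unadjusted p under 0.05 (edgeR) was found for 4 of the 6 mRNAs. The share of all genes with such a p was not counted, and it includes the 16.4% and 11.4% called after adjustment. Without IgG IP replicate 1, MT-CO3 was lower (1 call), beside 1611 of 15709 genes. The number called ranged from 0 to 6 over the alternatives tried. It was 6 without a filter on low counts, beside 3219 of 31634 genes. The 3 comparisons share libraries, so their values are not independent of each other.

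Counts along the mRNAs rose and fell in largely the same places in the 3 groups. Over the 76 windows of MT-CO1, the Pearson correlation between group means was 0.97 for MDH2 IP and SMI and 0.98 for MDH2 IP and IgG IP, as a description of overlapping windows. The profile of MT-CYB was the least alike between MDH2 IP and SMI, with a correlation of 0.81 over 56 windows, and between MDH2 IP and IgG IP it was 0.95. Window 16 of MT-CO1 reached 56.0, 84.2 and 70.2 CPM for MDH2 IP, 67.2, 90.3 and 61.5 for SMI and 63.6, 56.1 and 69.5 for IgG IP. The 3 groups overlapped at this window, which was the most counted of MT-CO1 in all but 1 of the 9 libraries.

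Window 36 of MT-CYB had 18.3, 21.0 and 25.7 CPM for MDH2 IP, 24.3, 32.1 and 31.5 for SMI and 24.7, 22.2 and 24.8 for IgG IP, with overlap between all groups. Window 4 of MT-ATP8 had 33.1, 44.8 and 41.0 CPM for MDH2 IP, 31.2, 53.3 and 46.9 for SMI and 45.0, 22.8 and 32.3 for IgG IP. It took 15.6% to 18.2% of all MT-ATP8 counts in the 8 libraries where it was the most counted window. Window 28 of MT-CO2 had 27.2, 49.7 and 43.5 CPM in MDH2 IP against 30.5, 47.8 and 29.5 in SMI. In SMI another window of MT-CO2, window 5 (chrM:7666-7715), was the most counted in all 3 libraries.

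**Figure D2:**
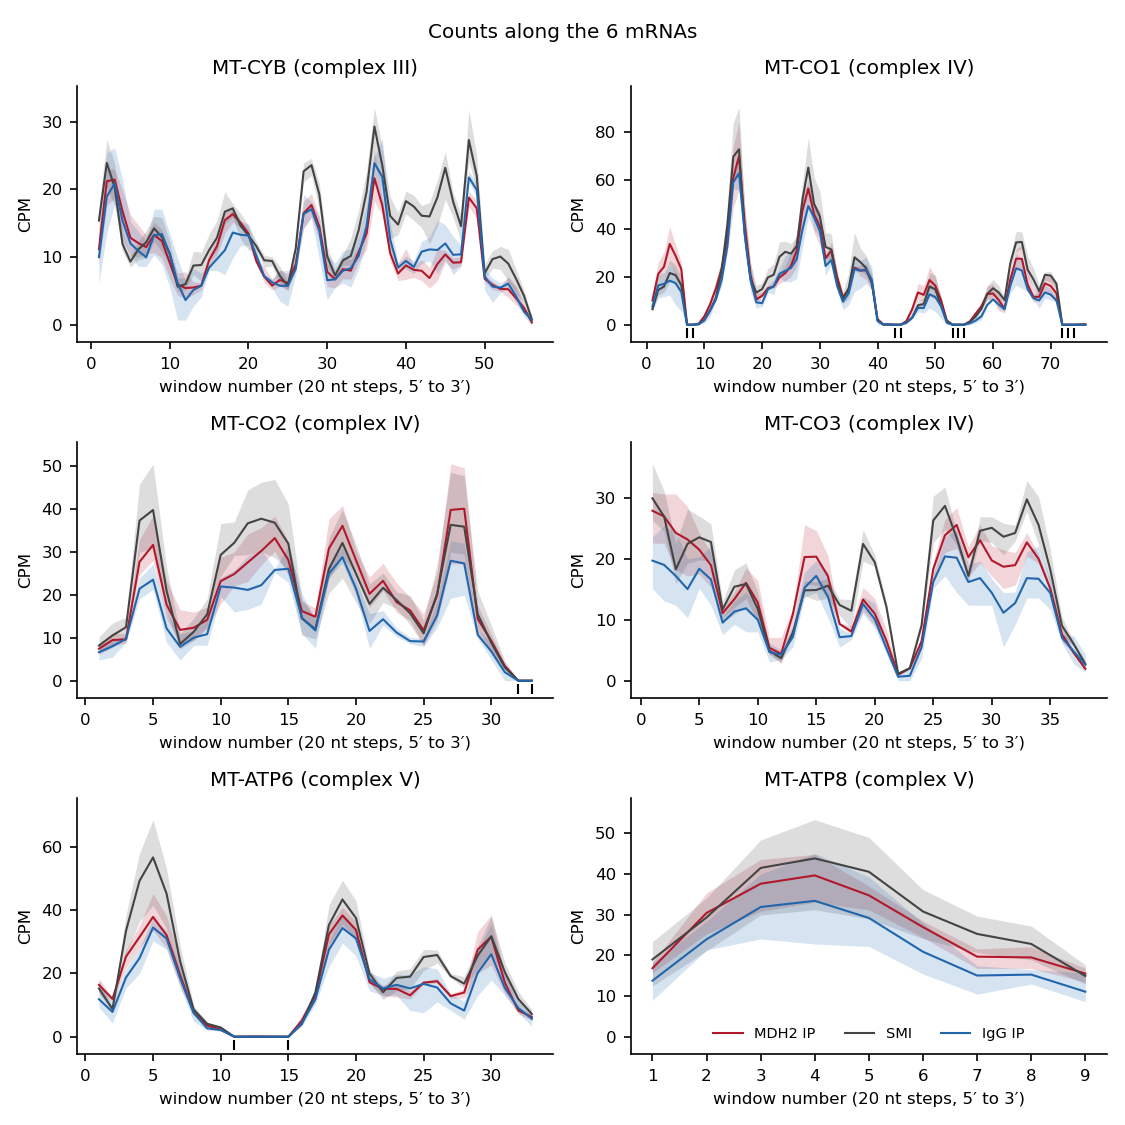
Mean CPM (y axis) in each 50-nt window (x axis, window number from the 5′ end) of the 6 mRNAs in MDH2 IP, SMI and IgG IP. Shading runs from the lowest to the highest of 3 libraries and black ticks mark the 14 windows with 0 counts in all 9 libraries. SMI lies above both IPs along windows 38 to 47 of MT-CYB, where window 43 had 5.43 to 8.47 CPM in MDH2 IP and 11.98 to 18.1 in SMI.

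Window by window, 26 of the 222 tested windows were lower in MDH2 IP than in SMI and 0 were higher, with an adjusted p within 0.05 and a log2 fold change past 1 in size (edgeR, one-sided). Over all 51108 windows tested, 10.0% were lower and 4.04% higher. Of the 26 windows, 18 belonged to MT-CYB, 3 each to MT-CO3 and MT-ATP6, 2 to MT-CO1 and 0 to MT-CO2 or MT-ATP8. The median log2 fold change of the 222 windows was -0.60, beside 0.05 over all windows, and 19 of them were above 0. Without MDH2 IP replicate 1 the number of lower windows was 17, and with a minimum of 20 counts it was 14. Of all windows, 3632 of 51108 and 2418 of 16913 were lower in these settings.

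The scale of these window values differs from that at gene level. Libraries are scaled here over the tested windows, and with the library sizes of the gene-level comparison, an alternative chosen after seeing the data, the median of the 222 windows became -0.20 and that of all windows 0.44. In that setting 7 windows were lower, all in MT-CYB (windows 40 to 46, chrM:15527-15696), and 1 was higher, window 46 of MT-CO1. Of all 51108 windows, 2841 were then lower and 7424 higher. With total counts as library size 2 windows were lower and 1 was higher, beside 2380 and 12171 of all windows.

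The lower windows of MT-CYB lay mainly toward its 3′ end. With the mRNA divided into 3 equal parts, 15 of the 18 tested windows nearest the 3′ end were lower, against 1 of 18 in the middle and 2 of 19 at the 5′ end. Median log2 fold changes were -0.53, -0.81 and -1.30 in the parts from 5′ to 3′. The 3′ part held 26.7%, 25.9% and 26.1% of the MT-CYB counts in MDH2 IP against 34.1%, 35.5% and 35.6% in SMI, so these groups did not overlap. In IgG IP it held 25.4%, 32.7% and 32.5%, with replicate 1 at the level of MDH2 IP and the others between the groups.

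The lower windows formed a run from window 38 to window 47 and a second run from window 51 to 55. Window 43 had 5.43, 6.82 and 8.47 CPM for MDH2 IP, 11.98, 18.1 and 17.97 for SMI and 9.44, 12.9 and 11.004 for IgG IP. All MDH2 IP values were below all SMI and all IgG values there. The log2 fold change over SMI was -1.65 (SE 0.25, adjusted p = 1.01e-04, edgeR), and -1.25 (SE 0.28, adjusted p = 0.00939) with the library sizes of the gene level. The median match to nuclear DNA was under 31 nt in all but 2 of the MT-CYB windows, and 60 nt or more in none. This median sets matches under 31 nt to 0, also where they are the 3′ end of a longer one.

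**Figure D3:**
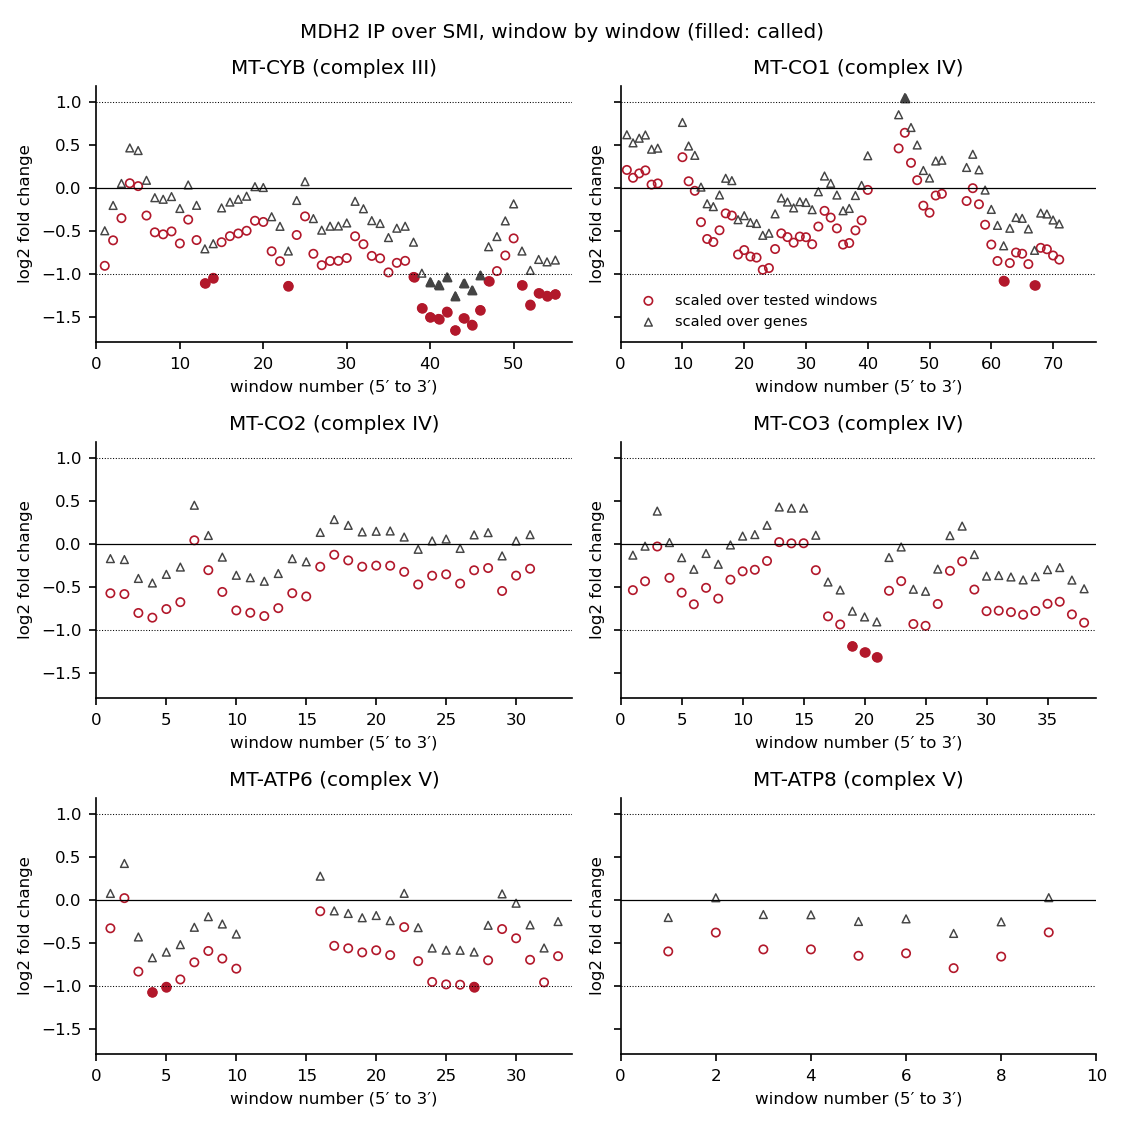
Log2 fold change of MDH2 IP over SMI (y axis) for the tested windows of each mRNA (x axis, window number from the 5′ end). Circles were scaled over tested windows and triangles over genes, filled symbols mark called windows and dotted lines a log2 fold change of 1 in size. With both scalings, windows 40 to 46 of MT-CYB are filled, and window 43 is the lowest at -1.65 and -1.25.

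The lower windows of the other mRNAs were fewer and did not pass with the library sizes of the gene level. CPM here are scaled over genes and the fold changes over tested windows, so the fold changes lie lower than the CPM alone would give. Window 21 of MT-CO3 had 5.62, 8.35 and 5.70 CPM in MDH2 IP and 11.6, 11.7 and 12.9 in SMI, groups that did not overlap (log2 fold change -1.31, SE 0.25, adjusted p = 0.00130, edgeR). Window 67 of MT-CO1 had 9.77, 15.6 and 9.45 CPM against 15.9, 23.6 and 17.2, with all MDH2 IP values below all SMI values (-1.13, SE 0.25, adjusted p = 0.00536, edgeR). Window 4 of MT-ATP6 had 27.9, 35.2 and 31.3 CPM against 36.4, 57.9 and 53.3 (-1.07, SE 0.22, adjusted p = 0.00258, edgeR). These groups did not overlap either.

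Window 46 of MT-CO1 went the other way, with 4.93, 8.21 and 6.35 CPM for MDH2 IP, 2.61, 3.50 and 3.05 for SMI and 3.27, 2.46 and 2.75 for IgG IP. Every MDH2 IP library was above every library of both controls. Its log2 fold change over SMI was 0.64 (SE 0.29, adjusted p = 0.467, edgeR) on the scale of the tested windows and 1.05 (SE 0.31, adjusted p = 0.0358, edgeR) on that of the genes, so that the call depends on the scaling. The median match of this window to nuclear DNA was 105.5 nt, and the part of that in the result was not tested.

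Against IgG IP, 1 of 219 windows was lower in MDH2 IP and 0 were higher, while of all 30427 windows 4.71% were lower and 0.148% higher. The lower one was again window 43 of MT-CYB (log2 fold change -1.32, SE 0.36, adjusted p = 0.0325, edgeR), and the call was lost with the library sizes of the gene level, with DESeq2 or total counts, and without MDH2 IP replicate 1 or 2 or IgG IP replicate 2 or 3. The median over the 219 windows was -0.42 on the scale of the tested windows, beside 0.16 over all windows, and 0.25 on that of the genes, beside 0.79. The sign of the shift against IgG IP thus depends on the scaling. Between IgG IP and SMI, 0 of 219 windows were called in either direction, against 6.14% higher and 6.4% lower among 26669 windows, with a median of 0.07 beside -0.18 over all windows and of -0.36 with the library sizes of the gene level.

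Where the counts lie along an mRNA does not depend on the scaling between libraries. The mean position of MT-CYB counts, in percent of its length from the 5′ end, was 45.6, 44.3 and 45.5 for MDH2 IP, 50.1, 50.3 and 51.4 for SMI and 44.5, 49.1 and 49.6 for IgG IP. MDH2 IP lay nearer the 5′ end than SMI in all libraries, with a difference of -5.47 percent of the length, while IgG IP overlapped MDH2 IP because of its replicate 1. The exact two-sided permutation test gave p = 0.1, the smallest that 3 libraries against 3 allow (0.225 after Benjamini-Hochberg adjustment over 18 tests). The difference between MDH2 IP and IgG IP was -2.59 percent of the length, and -4.22 to -1.65 when each library was left out. The value of -4.22 came without IgG IP replicate 1. The groups then did not overlap, which follows from leaving out the library that overlapped.

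MT-CO1 shifted the same way, from 42.1 ± 0.481 percent of its length in SMI to 39.6 ± 0.333 in MDH2 IP, and MT-CO3 from 49.5 ± 0.767 to 46.8 ± 1.28 (SD, n = 3; exact permutation p = 0.1 each). MT-CO2 moved toward the 3′ end, from 45.7 ± 0.730 to 48.3 ± 1.503 (n = 3, exact permutation p = 0.1). None of these groups overlapped. Mean positions were computed only for mitochondrial mRNAs, so the share of all genes without overlap is not known. For MT-ATP6 and MT-ATP8 the groups overlapped, with differences of 1.24 and -0.78 percent of the length (exact permutation p = 0.4 and 0.5). Against IgG IP the MDH2 IP positions overlapped for all 6 mRNAs, and IgG IP itself did not overlap SMI for MT-CYB, MT-CO1, MT-CO2 and MT-CO3, each in the direction of MDH2 IP. Leaving out the most counted window of each library, which is not the same window in all of them, turned the difference from SMI to -9.32 for MT-CO2 and 5.96 for MT-CO3 and left -0.42 for MT-CYB. Leaving out the same window in all 9 libraries, an alternative chosen after seeing the data, gave 2.21, -1.998 and -6.15, and the groups still did not overlap.

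**Figure D4:**
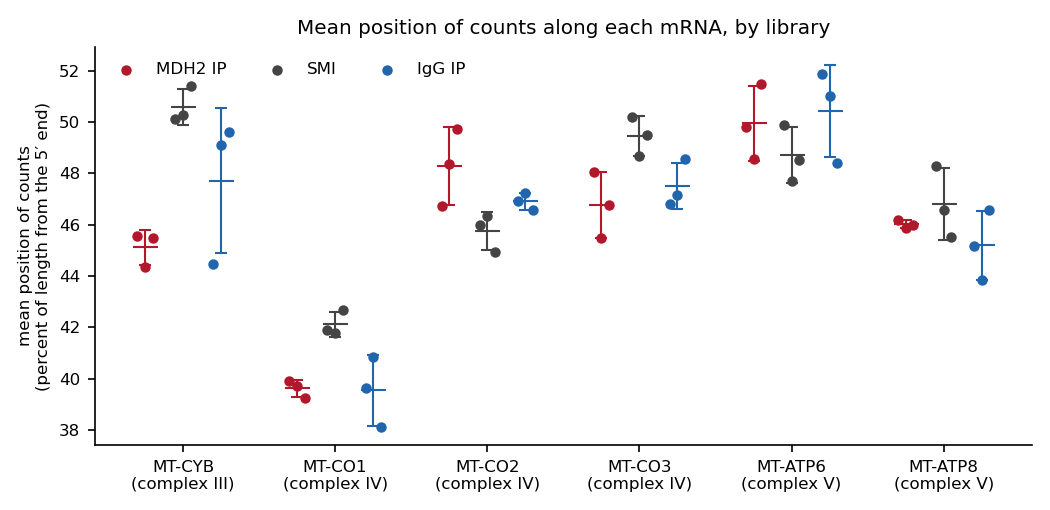
Mean position of counts along each of the 6 mRNAs (x axis) in percent of its length from the 5′ end (y axis, which does not start at 0). Points are libraries of MDH2 IP, SMI and IgG IP, horizontal lines means and bars SD (n = 3). MDH2 IP lies below SMI for MT-CYB, MT-CO1 and MT-CO3 and above it for MT-CO2.

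Such shifts were not limited to the mRNAs of complexes III, IV and V. Of the 7 mitochondrial mRNAs of complex I, the NADH dehydrogenase, MT-ND1, MT-ND2, MT-ND3 and MT-ND4L lay nearer the 5′ end in all MDH2 IP than in all SMI libraries, with differences of -3.52, -2.04, -4.12 and -3.44 percent of their length. MT-ND4 lay nearer the 3′ end, with a difference of 2.33, and MT-ND5 and MT-ND6 overlapped. The counts of the 6 mRNAs relative to those of the complex I mRNAs were 1.06 ± 0.0608 for MDH2 IP, 0.958 ± 0.0349 for SMI and 0.737 ± 0.0470 for IgG IP (SD, n = 3). No pair of groups overlapped in this ratio, at the smallest possible exact permutation p of 0.1 (0.233 adjusted over 21 tests). MT-ND6, which lies on the opposite strand, averaged 699 CPM in IgG IP against 119 in MDH2 IP and 104 in SMI. Without it, an alternative chosen after seeing the data, the ratios were 1.099 ± 0.0632, 0.981 ± 0.0342 and 0.876 ± 0.0765, so that the difference between IgG IP and SMI went from -0.22 to -0.10. The groups did not overlap in that setting either.

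Within the 6 mRNAs, MT-CYB took 15.4% ± 0.644 of the counts for MDH2 IP, 17.96% ± 0.978 for SMI and 18.3% ± 1.02 for IgG IP (SD, n = 3). Its share was lower in all MDH2 IP libraries than in all libraries of both controls (exact permutation p = 0.1 each, 0.233 adjusted). MT-CO1 took 32.7% ± 0.858 in MDH2 IP and 30.5% ± 1.68 in SMI, without overlap, while in IgG IP it took 32.5% ± 1.09, which overlapped MDH2 IP. MT-CO2 and MT-CO3 took larger shares in all MDH2 IP than in all IgG libraries, 16.99% against 15.3% and 14.9% against 13.8%, and overlapped SMI. The shares of MT-ATP6 and MT-ATP8 overlapped in all comparisons. Shares sum to 100%, so that a lower share of 1 mRNA raises the others.

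The 14 windows without any count lay in MT-CO1 (10), MT-CO2 (2) and MT-ATP6 (2). For each position the longest exact match to a nuclear chromosome that starts there and runs 3′ was found, up to 130 nt. Its median was taken over the window. Matches under 31 nt count as 0, so a window at the 3′ end of a longer match can score 0. Of the 20 windows with a match of 130 nt, 12 had 0 counts in all 9 libraries and 14 had under 10. Of the 50 windows with a match of 31 to 59 nt and the 34 with 60 to 99 nt, 0 were empty. The part of these matches in the counts was not tested, and the levels of MT-CO1, MT-CO2 and MT-ATP6 per window include their empty windows.

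In MT-ATP6, windows 11 to 15 (chrM:8727-8856) held 5 counts in the first MDH2 IP library and 0 in the other 8, and their median matches were 107.5, 87.5, 67.5, 47.5 and 0 nt. The pseudogene MTATP6P1, a nuclear copy of MT-ATP6 at chr1:633696-634376 on the + strand, had its counts in this stretch and the next 2 windows. Its windows 11 to 17 held 965, 778 and 733 counts for MDH2 IP, 639, 891 and 873 for SMI and 306, 124 and 121 for IgG IP. Almost all of its counts lay there, as the whole pseudogene had 977, 783 and 740 in MDH2 IP.

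Scaled to library size, this stretch of the copy had 108 ± 12.1 CPM for MDH2 IP, 86.4 ± 9.61 for SMI and 90.2 ± 18.4 for IgG IP (SD, n = 3). MDH2 IP and SMI did not overlap (log2 ratio 0.32, exact permutation p = 0.1), and IgG IP overlapped both. Named nuclear copies held 11.6% to 18.9% of the summed counts of MT-ATP6 and its copies, and at most 2.64% for each of the other 5 mRNAs. With the copies added, the log2 fold change of MT-ATP6 over SMI was -0.22 (SE 0.15, adjusted p = 0.275, edgeR) in place of -0.31. The source of the reads counted on the copy was not tested.

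**Figure D5:**
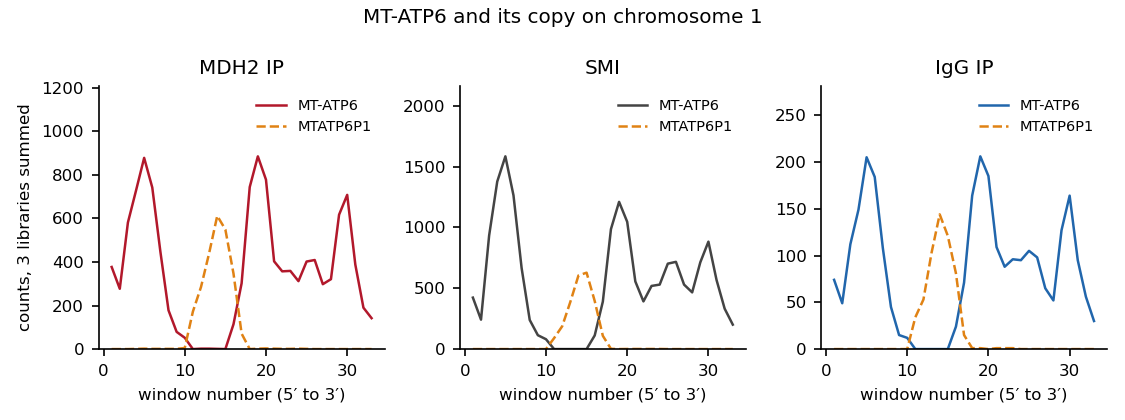
Counts summed over 3 libraries (y axis, its range differs between panels) in each window (x axis, number from the 5′ end) of MT-ATP6 and of its copy MTATP6P1 on chromosome 1. In MDH2 IP, SMI and IgG IP alike, the counts of the copy lie in windows 11 to 17, while MT-ATP6 is at 0 or near it in windows 11 to 15 and rises again in windows 16 and 17.

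The nuclear genes for subunits of the same complexes were called higher over SMI about as often as all genes. Of 38 such genes, all of them tested, 6 were higher and 1 was lower in MDH2 IP than in SMI, beside 16.4% and 17.9% of all genes, with a median log2 fold change of 0.18 beside -0.01 over all genes. By complex, 2 of 9 genes of complex III were higher and 1 lower, 1 of 11 of complex IV was higher, and 3 of 18 of complex V were higher. ATP5ME (1.09, SE 0.15), ATP5F1D (0.89, SE 0.21) and UQCRC1 (0.73, SE 0.13) were the highest of those called, and UQCRH was the lower one (-0.56, SE 0.18), with edgeR adjusted p-values of 0.00161, 0.0111, 0.00407 and 0.0392. Against IgG IP 10 of the 38 were higher and 0 lower, beside 4.64% and 7.77% of all genes, with a median of 0.75, beside 0.32 for the 6 mitochondrial mRNAs. Between IgG IP and SMI 5 were lower and 0 higher, beside 11.4% and 16.4% of all genes, with a median of -0.49. Whether the nuclear and mitochondrial genes differ in these values was not tested.

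Over the 9 libraries and 17138 genes, the genes whose log2 CPM most resembled that of the 6 mRNAs summed were ENSG00000227615 (Pearson r = 0.93), SNORD21 (0.92), RIPK2 (0.92), FTH1 (0.91) and ENSG00000267520 (0.91). FTH1, the heavy chain of ferritin, had 540 CPM for MDH2 IP, 613 for SMI and 361 for IgG IP on average. The others averaged at most 11.3 CPM in any group. These correlations rest on 9 libraries of 3 groups and were chosen as the highest, so they are a description.

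Within the 222 tested windows, the log2 fold change over SMI had a Spearman correlation of -0.32 with the position along the mRNA and of 0.23 with the GC content of the window. By mRNA, the correlation with position was -0.71 over the 55 windows of MT-CYB, -0.46 over the 38 of MT-CO3, -0.39 over the 61 of MT-CO1 and 0.50 over the 31 of MT-CO2. CPM in MDH2 IP had a Spearman correlation of 0.00 with the share of T among the 130 windows with a median nuclear match under 31 nt. Windows overlap and share libraries, so these values carry no test.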

How the data were processed

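The 9 eCLIP libraries of Huh7 cells were deposited by the authors as counts of cross-link sites in 50-nt windows with a step of 20 nt, not normalized. Per the methods of the study, reads were trimmed, aligned to GRCh38 with GENCODE v23 genes (up to 10 alignments allowed), freed of PCR duplicates by molecular identifiers, and counted at the base upstream of each alignment. Windows without counts are not listed. Gene names, positions and sequences were taken from GENCODE v44 and GRCh38, which matched 33751 of 34950 Ensembl identifiers. The identifiers of the 6 mRNAs are the same in both.

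Counts were summed over the windows of each gene, or tested window by window, in edgeR 4.0.16 (R 4.3.3) with TMM scaling and the quasi-likelihood test, for features that reached 10 counts in 3 or more of the 6 libraries of a comparison. Gene tests were two-sided. Window p-values were one-sided in each direction and multiplied by the number of tested windows that overlap, the window included. All p-values were adjusted by the Benjamini-Hochberg method over all features tested. CPM are counts per 1000000 of the TMM-scaled library size of the gene level over the 9 libraries. For positions and shares, exact permutation tests (two-sided) were run. Python 3.11.15 (scipy 1.17.1, matplotlib 3.10.9) was used for tables and figures, and both edgeR steps were tested on simulated data.

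No 2 replicates agreed within sampling noise (chi-square per degree of freedom of at least 2.77). Deviations from the group means correlated between same-numbered MDH2 IP and SMI libraries (0.13, 0.48 and 0.50). Per the methods of the study, SMI was set aside from the input ahead of the IP. The sources do not state that equal replicate numbers mark the same lysate. The replicate block, an alternative, took this match of numbers from the data. All main tests were run without the block. The members and the gene lists were chosen with earlier results of these data known. The text names the 6 mRNAs, their most counted windows per group and their highest and lowest windows over SMI, the complex I mRNAs, named nuclear copies, called nuclear subunits of the same complexes and the 5 most similar genes. The alternatives were DESeq2 1.42.0, other scalings, count filters, fits and ways of counting, the replicate block and leaving out each library.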

Additional observations from a re-analysis of the deposited data

How the results depend on the processing

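At gene level, the number of mRNAs lower in MDH2 IP than in SMI, 1 as reported, was 0 with DESeq2, total counts, the size factors of DESeq2, a fit of all 9 libraries or windows that do not overlap, and 0 to 0 when each library was left out. With the replicate block, for which the libraries of this comparison were treated as paired, it was 3, beside 5020 of 17057 genes. Same-number correlations were weaker in the other comparisons. They were -0.03 to 0.29 for MDH2 IP with IgG IP and 0.03 to 0.31 for IgG IP with SMI. Replicates 2 and 3 correlated best with their own number there as well, and replicate 1 did not. There the block gave 1 higher mRNA against IgG IP (MT-CO2), beside 2096 of 15492 genes. It gave 4 lower in IgG IP than in SMI, beside 3056 of 15709 genes. Without a filter on low counts 1 mRNA was higher against IgG IP, beside 1680 of 32520 genes. In that setting 6 were lower in IgG IP than in SMI, beside 3219 of 31634. In the latter comparison DESeq2 gave 1 lower mRNA, total counts 4 and a fit of all 9 libraries 1, beside 2019, 2745 and 2107 of 15709 genes. Leaving out each library gave 0 to 1 there.

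Window calls against SMI changed from 0 higher and 26 lower to 1 and 7 with the library sizes of the gene level, to 1 and 2 with total counts, to 14 lower with a minimum of 20 counts and to 17 to 36 lower when each library was left out. Against IgG IP the 1 lower window became 0 with the library sizes of the gene level, DESeq2, total counts or a minimum of 5 counts, 2 without the multiplication for overlap, and 0 to 1 without single libraries. Between the controls, 2 windows were higher with total counts and with a minimum of 20 counts, beside 2199 of 26669 and 861 of 10092 windows. The replicate block gave 25, 1 and 0 lower windows in the 3 comparisons. Median log2 fold changes over the windows turned to 0.25 (MDH2 IP against IgG IP) and -0.36 (IgG IP against SMI) with the library sizes of the gene level, to -0.32 in the latter with a minimum of 5 counts, and ranged from -0.011 to 0.16 there without single libraries. The share of library counts in well-counted windows was 2.04%, 2.08% and 2.37%.

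Of the gene-level fold changes that were not called, MT-CO1 turned to 0.0024 and MT-CO2 to 0.0054 over SMI with total counts, and they ranged from -0.21 to 0.058 and from -0.24 to 0.10 without single libraries. MT-CYB against IgG IP turned to -0.060 in the fit of all 9 libraries and to -0.025 with windows that do not overlap, and ranged from -0.029 to 0.13. Leaving out the most counted window of each library turned the position differences, in percent of length, of MT-CO2 (-9.32), MT-CO3 (5.96), MT-ATP6 (-12.0) and MT-ATP8 (0.120) against SMI, of MT-CO1 (-0.422), MT-CO3 (6.51) and MT-ATP8 (-4.33) against IgG IP, and of MT-CO2 (-11.8), MT-ATP6 (-6.09) and MT-ATP8 (4.45) between the controls. Libraries then lose different windows, which moves the mean position by construction. With the same window left out everywhere, MT-ATP6 (-1.64) and MT-ATP8 (0.120) against SMI, MT-CO1 (-0.440) and MT-CO3 (0.0188) against IgG IP and MT-ATP6 (-1.10) between the controls turned. Against IgG IP, windows that do not overlap gave -0.102 for MT-CO1, leaving out the ends 0.381 for MT-CO3 and 0.769 for MT-ATP6, and windows with little nuclear match 0.730 for MT-ATP6, which was -0.0979 between the controls with these windows. Without single libraries, MT-CO1 ranged from -0.619 to 0.747 and MT-ATP6 from -1.49 to 0.231 against IgG IP. The causes of the other changes were not tested. The settings with little nuclear match, the same window left out and the library sizes of the gene level were chosen after seeing the data. The low depth of IgG IP limits its comparisons, and 3 libraries a group limit all permutation tests to p = 0.1.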
